A study of Mus musculus with 6 samples.

Results

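The young baseline consists of 3 arrays of a series of 6. The 3 were chosen by their titles, which call them young mouse replicates 1, 2 and 3, and no measured value entered the choice. Each array holds RNA of unmanipulated B cell progenitors, pro-B and pre-B cells together, sorted from BALB/c mice at 2 months of age. No allele, transgene or agent is named for these mice, and the labels state neither the antibodies of the sort, nor the tissue it started from, nor whether an array is 1 animal or a pool. The RNA input was 100 ng, amplified into cDNA and hybridised to a whole-transcript array. The remaining arrays of the series were not used.

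B lymphocytes develop in the bone marrow through ordered stages. Pro-B cells rearrange the immunoglobulin heavy chain gene with the RAG recombinase, while terminal transferase adds bases at the joints. A successful heavy chain pairs with the surrogate light chain, made of VpreB and lambda-5, into the pre-B receptor, which drives a burst of division in large pre-B cells before light chain rearrangement. Interleukin-7 supports survival and division at these stages, and the transcription factors Ebf1 and Pax5 specify and hold B cell identity.

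The arrays resembled one another closely. Values are given as log2 of the intensity the authors deposited. Of several probe sets of a gene the brightest was used, which left 19938 genes. Across all 28940 probe sets, which are not independent replicates, the pairwise correlations were 0.9959 between replicates 1 and 2, 0.9934 between 1 and 3, and 0.9932 between 2 and 3. Replicate 3 had the widest spread of values, with an interquartile range of 2.89 over all probe sets against 2.73 on replicate 1 and 2.72 on replicate 2. The level of background was set on each array from 1212 probe sets for receptors of smell and pheromones, olfactory and vomeronasal, as the 95th percentile of their values, at 4.74, 4.74 and 4.57 on replicates 1, 2 and 3. Above it on all 3 arrays lay 10094 genes (50.6%), and 8588 lay above it on none. No depth exists for array signals, and the 3 arrays limit the precision.

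All 7 marker genes of progenitor B cells lay above background on all arrays, against 50.6% of all genes. Vpreb1, which encodes the V-like part of the surrogate light chain, read 11.15, 10.76 and 11.07 on replicates 1, 2 and 3. Il7r, the receptor subunit for interleukin-7, read 10.15, 10.13 and 9.96. Ebf1 read 10.07, 10.02 and 9.90. These 3 were the brightest of the 7, and their arrays differed by at most 0.39. Pax5 read 9.62, 9.52 and 9.46, and Rag1, the catalytic subunit of the recombinase, read 9.56, 9.79 and 9.43. Igll1, which encodes lambda-5, read 9.11, 8.77 and 9.54. Its lowest value was on replicate 2 and its highest on replicate 3. Dntt, which encodes terminal transferase, was the dimmest and least even of the 7, at 6.69, 6.59 and 8.18, with a mean of 7.15 ± 0.89 (SD, n = 3). Replicate 3 stood apart from both others for this gene. The histogram of gene means places the markers against all measured genes.

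**Figure D1:**
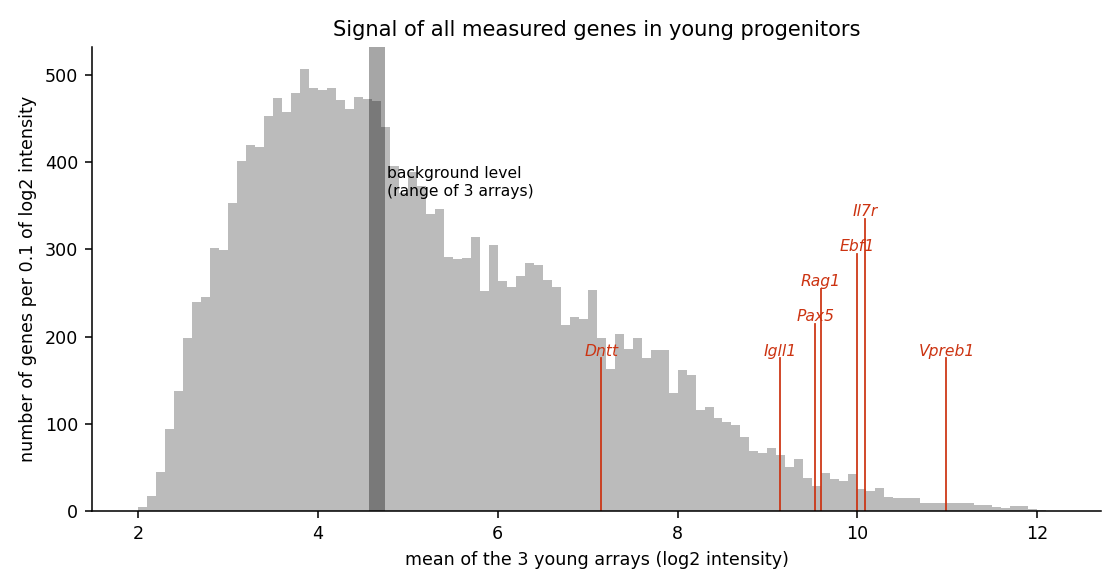
Number of genes (vertical axis) at each mean log2 intensity over the 3 young arrays (horizontal axis), in steps of 0.1, with the 7 marker genes as red lines and the range of the background level over the arrays as a grey band. Vpreb1 at a mean of 10.99 is the brightest marker and Dntt at 7.15 the dimmest, and all 7 lie to the right of the band.

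The wider B lineage programme was on throughout. All 22 measured genes of B lineage identity lay above background on all arrays, with a median level of 9.21 against 4.85 over all genes. Cd24a, a surface antigen of early B cells, led with 11.30, 11.22 and 11.03, ahead of Vpreb3 with 10.70, 10.80 and 10.51 and Cd79b, a signalling chain of the B cell receptor, with 10.68, 10.76 and 10.46. Each of the 3 was lowest on replicate 3. The dimmest members were Tcf3, an E protein transcription factor, at 7.81, 7.27 and 7.51 and Foxo1 at 7.49, 7.74 and 7.55. All 19 measured pre-B receptor signalling genes and all 18 pre-B stage genes also lay above background on all arrays, against 50.6% of all genes. Among the pre-B stage genes Cxcr4, the receptor for a marrow chemokine, was brightest at 10.21, 10.28 and 10.11. Il2ra, the surface antigen CD25 of pre-B cells, was at 8.18, 8.61 and 8.16. The highest value was on replicate 2 for both.

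The early end of the sort was less uniform. Of 34 measured genes of lymphoid progenitors and pro-B cells 27 lay above background on all arrays and 3 on none, namely Cd34, Meis1 and Gata3. Cd34, a stem and progenitor cell antigen, read 3.98, 3.93 and 4.16, and Gata3, a regulator of T cell development, read 3.98, 3.84 and 3.82. The brightest after Vpreb1 was Myb, a transcription factor of progenitors, at 10.26, 10.17 and 10.08. Of the interleukin-7 and STAT5 pathway 14 of 17 measured genes lay above background on all arrays, against 50.6% of all genes. Below Il7r came the survival gene Mcl1 at 9.66, 9.70 and 9.56 and the kinase gene Jak1 at 9.14, 9.35 and 9.33. At the bottom were Cish at 3.85, 3.94 and 3.89, a feedback inhibitor that STAT5 is known to induce, and Tslp, a cytokine gene, at 2.94, 2.80 and 2.79. Both were within background on all arrays.

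Genes of other marrow cells were present in part. Of 20 neutrophil and granule genes 18 lay above background on all arrays, led by S100a9 at 11.38, 11.34 and 11.50 and S100a8 at 11.30, 11.33 and 11.47. These encode the subunits of calprotectin, an abundant neutrophil protein, and ranked 33 and 35 by mean among named genes, above Cd24a at 51, Vpreb1 at 69 and Cd79b at 109. Of 9 erythroid genes 7 lay above background on all arrays, among them Alas2, the first enzyme of haem synthesis in red cells, at 5.62, 6.09 and 6.11. The share above background on all arrays, 50.6% over all genes, varied among the other lists. Above background on all arrays were 4 of 13 monocyte and macrophage genes, 2 of 13 T cell genes, 3 of 11 natural killer genes, 3 of 9 mast cell and basophil genes, 6 of 11 dendritic cell genes, 4 of 7 platelet genes, 6 of 8 plasma cell genes and 5 of 11 stromal and endothelial genes. Within background on all arrays were the co-receptor genes Cd4 and Cd8a, the macrophage gene Adgre1, the platelet genes Pf4 and Ppbp, the plasma cell regulator Prdm1 and the natural killer receptor gene Klrb1c. In bulk RNA, fewer cells of a type and less RNA per cell cannot be told apart. Xist, the RNA of the inactive X chromosome, read 9.72, 9.60 and 9.63, and the Y-linked genes Uty, Kdm5d and Eif2s3y lay within background on all arrays.

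The brightest genes were those of protein synthesis. Of the 20 named genes with the highest means 11 encode cytosolic ribosomal proteins, as do 40 of the top 100. Tmsb10, a small actin-binding protein, led with 12.04, 12.14 and 12.04, followed by the ribosomal genes Rps29 with 12.08, 12.08 and 12.02 and Rps20 with 11.98, 11.99 and 11.95. Tmsb10 and Rps29 did not differ beyond their spread between arrays, and Rps20 lay below Rps29 on all 3. Eef1a1, the elongation factor that delivers tRNA to the ribosome, read 11.87, 11.89 and 12.04, and Rn7sk, an RNA that restrains transcription elongation, read 11.98, 11.89 and 11.79. The other non-ribosomal members of the top 20 were the splicing factor gene Srsf3, Tpt1, the calmodulin gene Calm2, the histone variant gene H2az1, the snoRNA host gene Gas5 and Baiap2l1. Probes differ in how strongly they bind, so the order is one of signal and not of transcript abundance. Some of these means also rest on 1 of several probe sets. Baiap2l1 was at 11.67 on the brightest of 3 but at 9.46 and 3.81 on the others, and Gas5 at 11.69 on the brightest of 4 and 6.04 on the dimmest. Such gaps exceeded 4 on the log2 scale in 44 of the 999 genes with several probe sets, where the median gap was 0.86.

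Families of genes followed the same order. The 62 cytosolic ribosomal protein genes had the highest median level of 31 families, 10.99, with 60 of 62 above background on all arrays (96.8%). Next came hnRNP and splicing proteins at 9.14, proteasome subunits at 8.76, and respiratory chain and ATP synthase subunits at 8.65. Of their genes 93.5%, 95% and 94.4% lay above background on all arrays, against 50.6% of all genes. Psma6, a subunit of the proteasome core, led its family with a mean of 10.64, and Cox6c, a cytochrome c oxidase subunit, led the respiratory chain with 11.43. Histones, at a family median of 5.95, ranged from 2.40 to H2az1 at 11.72. Division genes were bright. All 39 measured DNA replication genes and all 33 mitosis genes lay above background on all arrays, with medians of 7.53 and 8.15. Pcna, the sliding clamp of DNA polymerases, read 11.27, 11.22 and 11.24. Top2a, which untangles chromosomes, read 10.55, 10.36 and 10.63 on its brighter probe set and averaged 3.71 on the other.

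**Figure D2:**
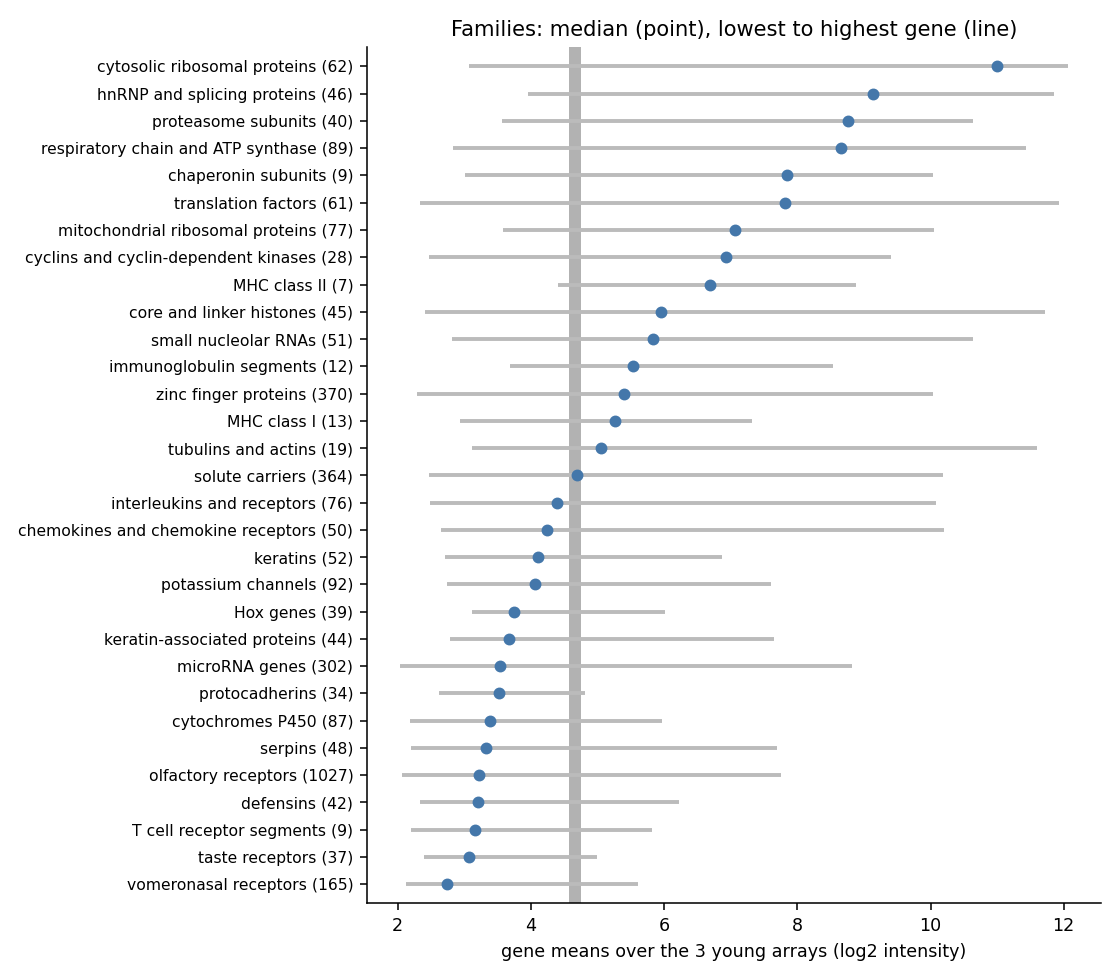
Median (point) and lowest to highest gene (line) of the mean log2 intensity over the 3 young arrays in 31 gene families, with the number of genes in brackets and the background level as a grey band. Cytosolic ribosomal proteins have the highest median, 10.99, and vomeronasal receptors the lowest, 2.74.

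The dimmest families were those used in other organs. Vomeronasal receptors had the lowest family median, 2.74 over 165 genes, then taste receptors at 3.08, T cell receptor segments at 3.15, defensins at 3.21 and olfactory receptors at 3.22. Vomeronasal and olfactory receptors set the background, so it follows from the definition that few of them lay above it. Their median levels were measured without it. Of 87 cytochromes P450 8 lay above background on all arrays, as did 6 of 39 Hox genes and 0 of 34 protocadherins. The share over all genes was 50.6%. Single members could still be bright. Olfr1174 averaged 7.76, and the interleukin and receptor family, at a median of 4.38, held Il7r at its top. Hoxa4 led the Hox genes with a mean of 6.01.

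The microRNA genes spanned nearly the whole lower range. MicroRNAs are short RNAs that bind messenger RNAs through a seed, bases 2 to 8, and this array reads the locus from total RNA cDNA and not the mature strand. The 302 microRNA genes had a median of 3.53, with 76 above background on all arrays (25.2%), against 50.6% of all genes. Of the 10 named genes with the lowest means 7 were microRNA genes: Mir297-1, Mir466, Mir376c, Mir450b, Mir190a, Mir144 and Mir450-1, with means from 2.04 to 2.13. The other 3 were Adam26b, Mup21 and Taar8c, of a testis protease, urinary protein and trace amine receptor family. Mir297-1 read 2.09, 2.04 and 1.98, and Mir144, a microRNA of red cell precursors, read 2.09, 2.13 and 2.13. At the other end Mir346 averaged 8.82, Mir598 8.62, Mir341 7.88, Mir667 7.87 and Mir680-2 7.50.

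The mature strands of dim and bright loci are shown to let their base composition be compared, with the seed in capitals, from RefSeq on GRCm38.p6. The dim loci come first.
mmu-miR-376c-5p (Mir376c, chr12:109722733-109722754, plus strand): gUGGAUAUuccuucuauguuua
mmu-miR-190a-5p (Mir190a, chr9:67236700-67236721, minus strand): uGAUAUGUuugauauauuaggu
mmu-miR-144-3p (Mir144, chr11:78073047-78073066, plus strand): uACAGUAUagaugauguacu
mmu-miR-450b-3p (Mir450b, chrX:53048008-53048029, minus strand): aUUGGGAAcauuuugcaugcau
mmu-miR-450a-1-3p (Mir450-1, chrX:53048171-53048192, minus strand): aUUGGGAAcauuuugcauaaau
mmu-miR-346-5p (Mir346, chr14:34894624-34894646, plus strand): uGUCUGCCcgagugccugccucu
mmu-miR-341-3p (Mir341, chr12:109611556-109611576, plus strand): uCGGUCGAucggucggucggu
mmu-miR-667-3p (Mir667, chr12:109720061-109720083, plus strand): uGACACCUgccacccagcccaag
The 3p strands shown for Mir450b and Mir450-1, which are neighbours on the X chromosome, share the seed UUGGGAA. The other 6 seeds shown differ from it and from one another. The 5p strands of Mir450b and Mir450-1, not shown, have different seeds, UUUGCAG and UUUGCGA.

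Level followed the G and C content of the hairpin. RefSeq held a hairpin for 258 of the 302 genes. Across these loci, which share the arrays and the hybridisation, the mean level correlated with the percentage of G and C at r = 0.70 and rho = 0.73. The 36 hairpins under 40% G and C had a median level of 2.42, within background, and the 24 over 60% had a median of 5.78. Mir346, with 65.3%, was the brightest, while Mir376c held 29.1% and Mir190a 28.4%. Median G and C content was 57.4% among the 58 loci above background on all arrays and 45.2% among the 188 above it on none. The letters are those of the hairpin, since the probe sequences were not used here.

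Spread between the arrays was small for most genes. Among the 10094 genes above background on all arrays the median SD over the 3 arrays was 0.118 on the log2 scale, and the 90th percentile was 0.249. The highest and lowest array differed by more than 1.5-fold in 512 of them (5.07%) and by more than 2-fold in 70. Of these 70, replicate 3 was the highest array in 66. Ribosomal proteins had the smallest median SD of all families, 0.05, and Rpl23, at 11.86, 11.84 and 11.83, hardly moved. The largest family medians of SD were those of immunoglobulin segments, 0.20, small nucleolar RNAs, 0.19, and chaperonin subunits, 0.17. Of 12 immunoglobulin segment genes 10 were highest on replicate 2 and 10 lowest on replicate 3, against 33.1% and 37.1% of all genes.

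Several of the most variable genes were myeloid genes, and Dntt was among them. Mmp8, a collagenase of neutrophil granules, read 6.00, 6.59 and 8.29, the largest SD among genes above background on all arrays, 1.19. Cxcr2, a chemokine receptor of neutrophils, read 6.23, 6.49 and 8.01. Slfn1, a Schlafen gene, read 5.92, 6.03 and 7.71, and Emb, the adhesion protein embigin, 5.60, 5.38 and 7.15. Each of these 4 was highest on replicate 3 by more than the gap between both other arrays, which was widest for Mmp8. Replicate 3 was also the highest array for Il1f9, Clec4d, Ctsl, Slfn4, Gzma, F13a1, Ly6g and S100a4, which with Dntt lay among the 20 largest. Ifitm3, an interferon-inducible membrane protein gene, read 8.24, 8.58 and 9.78. Stag3, a meiotic cohesin subunit gene, read 6.39, 5.52 and 7.05, a different value on each array, and n-R5s136, a 5S ribosomal RNA gene, was low on replicate 1 alone, at 6.53, 7.70 and 7.74. Among genes above background on only 1 or 2 arrays, Myl10 at 4.52, 4.66 and 6.31 and Ccr2, a chemokine receptor of monocytes, at 4.62, 4.64 and 6.15 were above on replicate 3 alone.

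Set against the mean of the other 2 arrays, replicate 3 was more than 1.5-fold higher in 315 of 19938 genes (1.58%) and lower in 53 (0.266%). Replicate 1 was higher in 30 (0.15%) and lower in 84 (0.421%), and replicate 2 higher in 22 (0.11%) and lower in 94 (0.471%). Of the 11350 genes above background on at least 1 array, replicate 3 was more than 1.5-fold higher in 2.63% and lower in 0.291%. It was the highest array for 50.4% of these and the lowest for 26.9%. Those shares are the nearer reference for lists that lie mostly above background. The differences of the 3 arrays share their values, so a gene high on replicate 3 lowers the other 2. Compared directly, replicates 1 and 2 differed by more than 1.5-fold in 92 genes, replicates 3 and 1 in 429 and replicates 3 and 2 in 514. A set of 3 arrays allows no test of 1 against the others, since a permutation over arrays cannot go below 1 in 3, so these values carry no p-value. The wider spread on replicate 3 entered them too. Median differences of replicate 3 lay between -0.07 and -0.02 in the 6 lower of 10 equal bins of genes by level and between 0.05 and 0.12 in the 4 upper bins. After quantile normalization of the 3 arrays they lay between -0.01 and 0.01, and such values are given below as quantile-normalized.

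**Figure D3:**
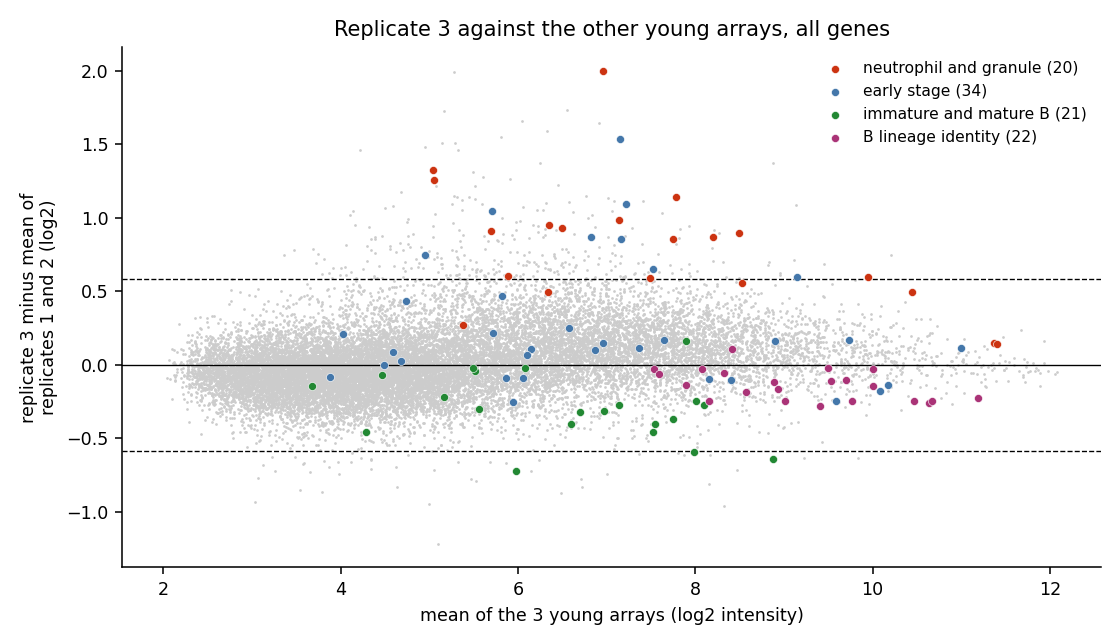
Difference of young replicate 3 from the mean of replicates 1 and 2 (vertical axis, log2) against the mean of the 3 arrays (horizontal axis, log2 intensity) for all 19938 genes in grey, with 4 gene lists in colour and dashed lines at 1.5-fold. Of the neutrophil and granule genes 14 of 20 lie above the upper line, as do 8 of 34 early-stage genes, while 3 of 21 immature and mature B cell genes lie below the lower line.

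A minority of the early-stage genes was shifted on replicate 3. Of the 34 measured, 8 were more than 1.5-fold higher there and 0 lower, against 1.58% and 0.266% of all genes. Replicate 3 held the highest value of 22 and the lowest of 6, against 37.1% and 37.1% of all genes. Of genes above background on at least 1 array it held the highest value of 50.4% and the lowest of 26.9%. Of these genes 2.63% were more than 1.5-fold higher there and 0.291% lower. Replicate 1 held the highest value of 29.8% of all genes and the lowest of 32.3%. The median difference over the list was 0.13, or 0.08 quantile-normalized, against -0.0035 over all genes, so the typical member moved little.

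The 8 genes belong to a few roles. Dntt had the largest difference, 1.54 (2.91-fold), or 1.43 quantile-normalized. The surrogate light chain gene Vpreb2, at 6.62, 6.44 and 7.40, was 0.87 higher on replicate 3, and Igll1 0.60 higher, while Vpreb1 was 0.12 higher with its top value on replicate 1. Surface receptors of progenitors made up a second group. Flt3, a receptor tyrosine kinase of early lymphoid progenitors, read 5.42, 5.31 and 6.41, a difference of 1.05. Kit, the receptor for stem cell factor, read 4.72, 4.69 and 5.45, above background on replicate 3 alone. Gfra2, a receptor for neurturin, read 6.74 on replicate 2 and 7.73 on replicate 3, with replicate 1 between them, a difference of 0.86. Replicate 3 lay well above both other arrays for each of these receptors. The transcription factor genes were Erg, an ETS family member, at 6.97, 6.73 and 7.95, and Lef1, a partner of beta-catenin, at 7.40, 7.21 and 7.96. After quantile normalization Lef1 (0.56) and Igll1 (0.55) fell just short of 1.5-fold, which is 0.585 on the log2 scale, and the other 6 stayed past it.

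The other early genes lay on both sides of 0. Among those higher on replicate 3 but short of 1.5-fold were Cd7, at a difference of 0.46, the chemokine receptor gene Ccr9 at 0.43, Spn, which encodes CD43, at 0.25 and the survival gene Bcl2 at 0.21. The difference of replicate 3 was -0.14 for Myb, -0.18 for Il7r and -0.25 for Rag1. It was -0.25 for Tespa1, a signalling adaptor gene, at 6.12, 5.93 and 5.77. Hhex, a homeobox gene, read 8.41, 8.46 and 8.33, and Ly6d, a surface antigen of committed lymphoid progenitors, read 8.02, 8.35 and 8.09. Rag2, the partner of Rag1, read 6.88, 6.94 and 7.06, so the recombinase genes lay on either side. Among the 16 measured recombination and end joining genes Dntt was the single gene past 1.5-fold. Of 26 progenitor transcription factor genes 3 were past it on replicate 3, all higher, namely Erg, Cebpa, a myeloid regulator, at 5.07, 5.12 and 5.76, and Etv6, an ETS family repressor, at 6.04, 5.96 and 6.64. Spi1, which encodes PU.1, read 6.41, 6.56 and 6.62, Gata1 4.69, 4.83 and 4.74, and Gfi1 5.19, 5.06 and 5.06.

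**Figure D4:**
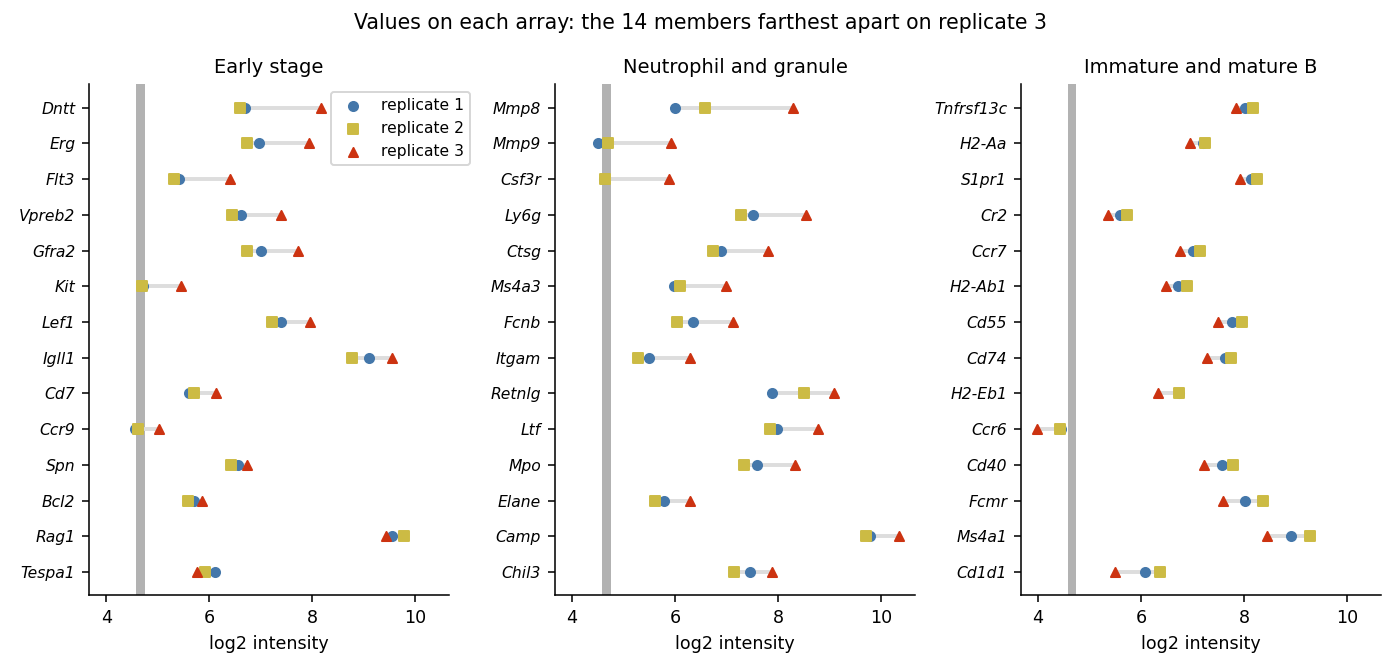
Log2 intensity on each young array (symbols; the grey line joins the lowest and highest array) for the 14 members of 3 gene lists with the largest differences of replicate 3, and the background level as a grey band. For Dntt and Mmp8 the value of replicate 3, 8.18 and 8.29, lies far to the right of both other arrays, whereas for Ms4a1 it is the lowest of the 3, 8.45.

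The windows around the start sites of 4 surrogate light chain and joining genes are printed because 3 of the 4 passed 1.5-fold on replicate 3 and Vpreb1 did not. Each is 300 bases, from 250 before the start to 50 after it, on the gene's strand, from RefSeq on GRCm38.p6. Capitals mark the E-box letters CAGCTG and CACCTG on either strand, which read CAGGTG on the other strand of the latter. E2A, the product of Tcf3, is known to bind such letters.
Dntt (chr19:41029025-41029324, plus strand): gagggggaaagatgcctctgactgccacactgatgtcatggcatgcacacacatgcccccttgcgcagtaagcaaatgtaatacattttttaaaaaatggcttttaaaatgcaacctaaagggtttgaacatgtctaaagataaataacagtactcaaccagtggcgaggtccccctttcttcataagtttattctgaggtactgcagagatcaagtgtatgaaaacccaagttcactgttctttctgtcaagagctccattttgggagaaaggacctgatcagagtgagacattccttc
Igll1 (chr16:16863936-16864235, minus strand): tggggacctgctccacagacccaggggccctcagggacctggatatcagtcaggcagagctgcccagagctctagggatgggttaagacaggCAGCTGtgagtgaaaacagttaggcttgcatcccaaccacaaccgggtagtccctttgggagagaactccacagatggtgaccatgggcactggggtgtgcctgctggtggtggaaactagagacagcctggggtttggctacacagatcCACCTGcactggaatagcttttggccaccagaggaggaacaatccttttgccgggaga
Vpreb1 (chr16:16869206-16869505, minus strand): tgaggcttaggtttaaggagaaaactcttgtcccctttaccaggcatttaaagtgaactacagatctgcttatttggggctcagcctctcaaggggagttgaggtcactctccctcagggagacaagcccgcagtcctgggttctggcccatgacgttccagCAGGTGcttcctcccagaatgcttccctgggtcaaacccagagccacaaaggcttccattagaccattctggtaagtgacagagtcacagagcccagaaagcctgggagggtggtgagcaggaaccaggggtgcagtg
Vpreb2 (chr16:17980315-17980614, plus strand): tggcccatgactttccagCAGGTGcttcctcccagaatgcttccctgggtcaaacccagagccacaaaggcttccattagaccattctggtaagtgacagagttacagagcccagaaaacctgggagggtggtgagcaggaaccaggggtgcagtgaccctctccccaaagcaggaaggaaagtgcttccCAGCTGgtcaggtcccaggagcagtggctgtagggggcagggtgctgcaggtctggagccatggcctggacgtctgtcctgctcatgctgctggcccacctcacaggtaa
The windows of Vpreb1 and Vpreb2 share a run of 91 identical bases, which starts at base 157 of the first and base 13 of the second and spans the CAGGTG of both. The genes are near-identical copies, so part of the signal of each may come from the other, and the split between them is uncertain. The Dntt window holds neither E-box. Of the 28 early-stage genes with a window 8 held CAGCTG, against 18.4% of the 15614 genes with one, and 9 held CACCTG, against 22.2%. CACCTG was found in 10 of 16 windows of pre-B receptor signalling genes. The share varied widely among lists, with 4 of 7 plasma cell windows, 5 of 9 T cell windows and 1 of 27 mitosis windows. A match is a description of letters and not a bound site.

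The neutrophil list was shifted as a whole. All 20 genes were highest on replicate 3, 14 of them by more than 1.5-fold, against 37.1% and 1.58% of all genes. Among genes above background on at least 1 array these shares were 50.4% and 2.63%. The median difference was 0.86 (0.75 quantile-normalized). Granule proteins of the earliest neutrophil precursors were included. Mpo, or myeloperoxidase, read 7.60, 7.34 and 8.32, Ctsg, or cathepsin G, 6.89, 6.74 and 7.80, and Elane, or neutrophil elastase, 5.78, 5.60 and 6.30. Genes of later granules and mature cells moved too. Ltf, or lactoferrin, read 7.97, 7.85 and 8.78, Ly6g, a surface antigen of neutrophils, 7.52, 7.28 and 8.54, and Mmp9, a gelatinase, 4.50, 4.69 and 5.92. Csf3r, the receptor for granulocyte colony-stimulating factor, read 4.63, 4.64 and 5.89. Mmp9 and Csf3r were above background on replicate 3 alone. The brightest members moved least, S100a9 by 0.14 and S100a8 by 0.15. Intensities summed over the list were 9346 on replicate 1, 9118 on replicate 2 and 12387 on replicate 3, against 17186, 17276 and 15250 over the B lineage list. The part of these cells in the shift of the early-stage genes was not tested.

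Windows of 2 neutrophil granule genes that hold the ETS letters GAGGAAGT are shown, with the letters in capitals. Each is 300 bases around the start site on GRCm38.p6, as before. PU.1 is known to bind letters of this kind.
Mpo (chr11:87793534-87793833, plus strand): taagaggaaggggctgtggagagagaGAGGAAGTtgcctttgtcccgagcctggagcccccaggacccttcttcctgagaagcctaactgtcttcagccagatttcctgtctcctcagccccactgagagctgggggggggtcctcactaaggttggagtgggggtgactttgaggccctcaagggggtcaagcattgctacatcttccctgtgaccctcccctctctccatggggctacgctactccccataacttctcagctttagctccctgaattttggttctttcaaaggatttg
Elane (chr10:79886062-79886361, plus strand): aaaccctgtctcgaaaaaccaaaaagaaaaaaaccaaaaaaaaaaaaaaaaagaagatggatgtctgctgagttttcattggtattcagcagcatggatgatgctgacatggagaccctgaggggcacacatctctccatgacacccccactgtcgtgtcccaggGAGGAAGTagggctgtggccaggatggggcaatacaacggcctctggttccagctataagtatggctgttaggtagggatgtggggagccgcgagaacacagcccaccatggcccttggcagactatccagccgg
GAGGAAGT, searched on both strands, was found in 6 of the 18 neutrophil genes with a window, namely Mpo, Elane, Prtn3, S100a8, Mmp8 and Ly6g, against 3.24% of all genes with one. S100a8 is among the members that moved least. TTGCGCAA, another motif searched, was found in 0 of the 18, against 0.256% of all genes with a window. Whether these letters bear on the shift was not tested.

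By their medians most lists of other cell types lay higher on replicate 3, while the platelet and plasma cell lists lay slightly lower. All 9 erythroid genes were highest on replicate 3, against 37.1% of all genes, with a median difference of 0.36 (0.38 quantile-normalized), and 8 were lowest on replicate 1, against 32.3% of all genes. Slc4a1, the anion exchanger of red cells, read 5.95, 6.35 and 6.90, the single erythroid gene past 1.5-fold, and Klf1, an erythroid transcription factor, 4.64, 4.88 and 5.12. Summed erythroid intensity was 987, 1061 and 1214. Its largest part came from Tfrc, at 9.19, 9.16 and 9.25, which is also on the pre-B stage list. Another 9 genes of the erythroid list were not measured here. Of 13 monocyte and macrophage genes 3 passed 1.5-fold, all higher, against 1.58% of all genes. Lyz2, or lysozyme, read 8.88, 8.66 and 9.86, Ccr2 is given above, and Csf1r, the receptor for macrophage colony-stimulating factor, read 4.07, 4.28 and 4.76. The list summed to 783, 729 and 1339, of which Lyz2 gave the largest part. Of 9 mast cell and basophil genes 3 passed it, Kit among them, with Mcpt8, a basophil protease, at 5.26, 5.72 and 6.49. Of 13 T cell genes 3 passed it, among them Thy1 at 4.97, 5.08 and 5.94 and Cd3g at 4.03, 4.03 and 4.84, while Cd4, at 4.11, 4.29 and 4.12, and Cd8a did not. T cell genes summed to 312, 318 and 411. Gzma, a granzyme, at 5.07, 5.29 and 6.45, was the natural killer gene past it. Megakaryocyte and platelet genes summed to 216, 225 and 216, with 0 of 7 past 1.5-fold and a median difference of -0.04. Of 11 dendritic cell genes 10 were highest on replicate 3, with a median difference of 0.21 (0.27 quantile-normalized), and Flt3 was the single one past 1.5-fold. Plasma cell genes had a median difference of -0.06 (-0.07 quantile-normalized), with 5 of 8 lowest on replicate 3 and 0 past 1.5-fold. Mzb1, a chaperone gene of plasma cells, differed in direction from that median at 7.95, 8.02 and 8.48. Stromal and endothelial genes had a median difference of 0.02, and Sparc, a matrix protein gene, at 5.17, 4.91 and 5.82, was the single one past 1.5-fold. Flt3 and Kit are held by other cells too, and lie on the dendritic cell and the mast cell list.

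Genes of mature B cells lay lower on replicate 3. Of 21 measured genes 17 were lowest there and 18 highest on replicate 2, against 37.1% and 33.1% of all genes, with a median difference of replicate 3 of -0.30 (-0.39 quantile-normalized). Past 1.5-fold were 3, all lower, against 0.266% of all genes. Ms4a1, which encodes CD20, read 8.91, 9.28 and 8.45, Fcmr, the receptor for immunoglobulin M, 8.01, 8.36 and 7.59, and Cd1d1, which presents lipids, 6.08, 6.36 and 5.49. Each was lowest on replicate 3 and highest on replicate 2. Of 7 major histocompatibility class II genes 5 were highest on replicate 2 and 5 lowest on replicate 3. H2-Aa was among them at 7.21, 7.25 and 6.96, as was H2-Ea at 8.86, 9.32 and 8.46, lower by more than 1.5-fold. The exceptions were H2-Eb2, highest on replicate 3 at 4.31, 4.36 and 4.54, and H2-Oa, highest on replicate 1 at 5.71, 5.69 and 5.69. Cd74, the invariant chain of class II, read 7.62, 7.74 and 7.28. The B lineage genes as a list had a median difference of -0.14 (-0.22 quantile-normalized), 17 of 22 lowest on replicate 3, against 37.1% of all genes, and 0 past 1.5-fold. Bcl11a was the single member whose replicate 3 value exceeded the mean of the others, at 8.32, 8.44 and 8.49. Among pre-B stage genes Cd2 at 9.48, 9.73 and 9.08 and Bach2, a transcriptional repressor, at 8.71, 8.49 and 8.21 were lower on replicate 3, while Enpep, the surface enzyme BP-1, at 7.01, 6.35 and 7.19 was higher. The median over the 18 was 0.03, or -0.09 quantile-normalized, so its sign depended on the scaling.

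The lowest genes of replicate 3 were few and of mixed kind. Phxr4 at 6.94, 6.61 and 5.90, Reln, the extracellular protein reelin, at 7.04, 6.95 and 6.16, and Cacna1e, a calcium channel subunit, at 8.44, 8.41 and 7.62 led them. Fcrl1, a receptor of mature B cells, at 7.22, 7.28 and 6.50, and Rasgrp3, which activates Ras below the B cell receptor, at 6.32, 6.46 and 5.66, were among the 10 lowest. The other 5 of the 10 were Wsb2, Hamp2, Cd1d1, Scd1 and Mir25.

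**Figure D5:**
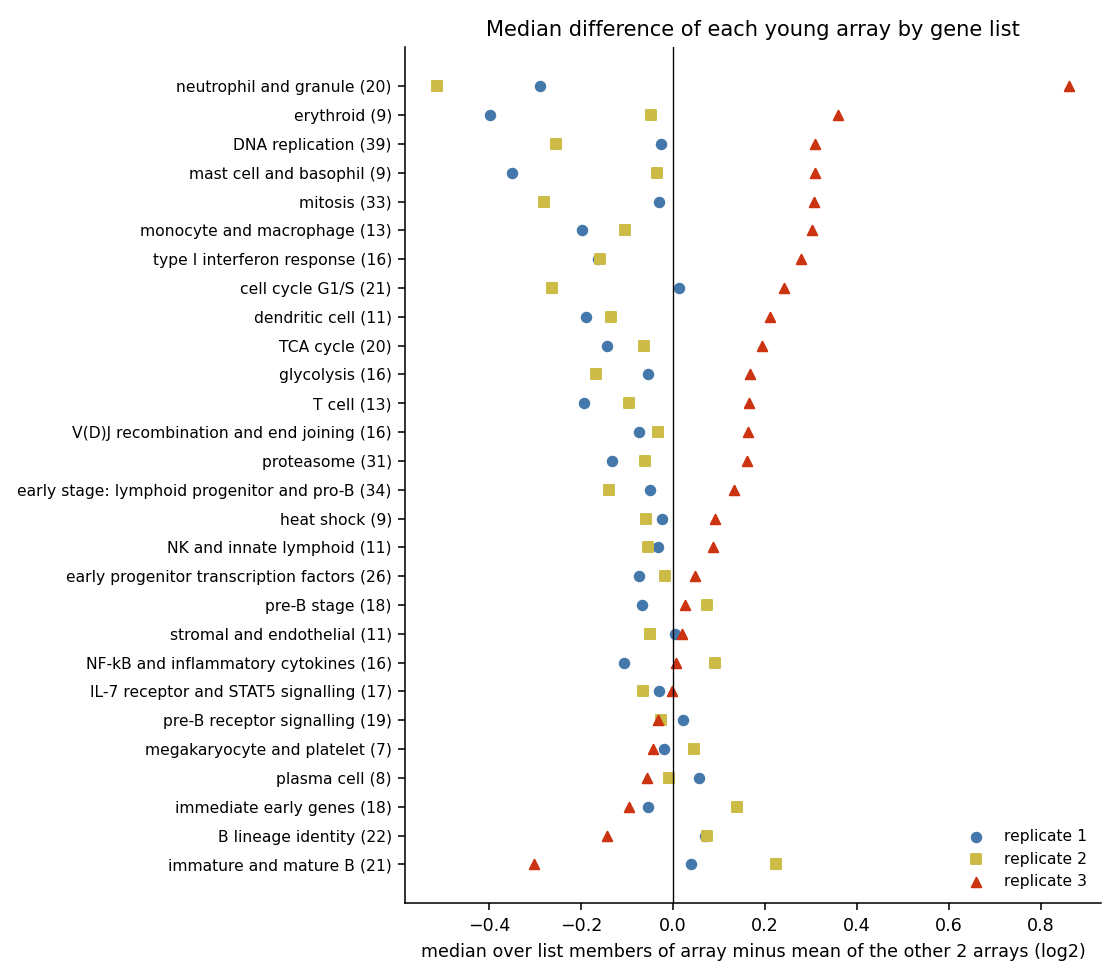
Median over the members of each gene list of the difference between an array and the mean of the other 2 (horizontal axis, log2), for young replicates 1, 2 and 3, with the number of measured genes in brackets. Replicate 3 lies farthest right for neutrophil and granule genes, 0.86, and farthest left for immature and mature B cell genes, -0.30.

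Division genes ordered the 3 arrays, with replicate 3 highest and replicate 2 lowest. Of 39 DNA replication genes 36 were highest on replicate 3 and 32 lowest on replicate 2, against 37.1% and 30.6% of all genes, and of 33 mitosis genes 32 and 31. Among genes above background on at least 1 array these shares were 50.4% and 36.6%. The median difference of replicate 3 was 0.31 for both lists (0.20 and 0.21 quantile-normalized), and that of replicate 2 was -0.25 and -0.28. Past 1.5-fold on replicate 3 were 2 replication genes, both higher, and 0 mitosis genes, against 1.58% of all genes. The 2 were Mcm5, a subunit of the replicative helicase, at 8.24, 7.70 and 8.67, and Orc1, of the origin recognition complex, at 5.77, 5.14 and 6.08. After quantile normalization Mcm5 stayed past it, at 0.60, and Orc1 fell short, at 0.57. More replication genes were past 1.5-fold on replicate 2, namely 4, all lower, against 0.471% of all genes. These were Orc1 (-0.78), Mcm5 (-0.76), Pola1 (-0.63), which encodes the catalytic subunit of the primase-polymerase complex, and Pole (-0.60), that of the leading-strand polymerase. Bub1b, a spindle checkpoint kinase, read 8.85, 8.57 and 9.07. Replicate 1 lay between the other two for each. Of the G1/S list 13 of 21 were highest on replicate 3, 17 lowest on replicate 2 and 2 past 1.5-fold on replicate 3. These were Cdc25a, a phosphatase that activates cyclin-dependent kinases, at 5.35, 5.24 and 5.99 and the inhibitor gene Cdkn2c at 6.38, 6.23 and 7.07. Myc, listed with the interleukin-7 pathway, read 7.30, 6.96 and 7.95, the single gene of that list past 1.5-fold.

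Proteasome, citric acid cycle and glycolysis genes showed the same direction at smaller size, but respiratory chain genes hardly moved. The 89 respiratory chain and ATP synthase genes had a median difference of 0.05 (-0.005 quantile-normalized), with 50 highest on replicate 3. Of 31 proteasome genes 29 were highest on replicate 3, against 37.1% of all genes, with a median difference of 0.16 (0.13 quantile-normalized) and 0 past 1.5-fold. Of genes above background on at least 1 array 50.4% were highest on replicate 3. Of 20 citric acid cycle genes 18 were highest there, at a median of 0.19 (0.09 quantile-normalized). Glycolysis had a median of 0.17 (0.09 quantile-normalized), with Pgk1, the first ATP-producing enzyme of the pathway, at 8.90, 8.86 and 9.59. Hsph1, a heat shock protein gene, at 6.97, 6.85 and 7.79, was the single member of its list past 1.5-fold. The cytosolic ribosomal proteins lay near 0, with a median difference of -0.02 and 18 of 62 highest on replicate 3, below the 37.1% of all genes.

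Of 16 interferon response genes 7 lay above background on all arrays, against 50.6% of all genes, and 7 within it on all arrays. Replicate 3 was the highest array for 12, against 37.1% of all genes, with a median difference of 0.28 (0.33 quantile-normalized). Past 1.5-fold there were 3, all higher, against 1.58% of all genes. Oas1a, a sensor of double-stranded RNA, read 5.65, 5.01 and 6.20, a different value on each array. Ifit2 read 5.07, 5.20 and 5.73, and Rsad2, the third, stayed within background at 3.62, 3.76 and 4.35. Mx1 read 3.91, 3.97 and 3.90. The letters TTTC, any 2 bases and TTTC again, searched on both strands and typical of interferon response elements, were found in 8 of the 12 list genes with a window, against 3.89% of all genes with one. The window of Oas1a is shown for its 2 overlapping matches, in capitals.
Oas1a (chr5:120907476-120907775, minus strand): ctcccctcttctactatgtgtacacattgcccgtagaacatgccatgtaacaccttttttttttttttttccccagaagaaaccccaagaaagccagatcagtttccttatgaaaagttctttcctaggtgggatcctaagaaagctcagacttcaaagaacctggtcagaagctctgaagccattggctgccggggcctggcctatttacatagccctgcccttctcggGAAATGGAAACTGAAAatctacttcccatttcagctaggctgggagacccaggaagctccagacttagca
Of 16 NF-kB and inflammatory cytokine genes 8 lay above background on all arrays, near the 50.6% of all genes. Rel, a subunit of NF-kB in lymphocytes, was brightest at 9.39, 9.49 and 9.23. Il6, at 2.46, 2.55 and 2.45, and Il1a, at 2.52, 2.65 and 2.78, lay within background, and Il1b, at 4.33, 4.41 and 4.84, was above it on replicate 3 alone. Immediate early genes, which respond within minutes to handling and signals, were highest on replicate 2 in 14 of 18 cases, against 33.1% of all genes. Fos read 4.59, 5.10 and 4.59, and Jun 7.57, 7.99 and 7.65. On each array 0 members passed 1.5-fold.

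Replicates 1 and 2 had few differences of their own. Slc35g1, a solute carrier gene, was highest on replicate 1 at 6.78, 5.97 and 5.97, and so was Arl2bp at 7.70, 6.68 and 7.12. Glo1, which detoxifies methylglyoxal, was lowest there at 7.14, 7.92 and 8.39. Dnajb9, a chaperone gene of the endoplasmic reticulum, was highest on replicate 2 at 7.09, 7.95 and 7.11, as were the mature B cell genes H2-Ea at 8.86, 9.32 and 8.46 and Btla, an inhibitory receptor, at 5.65, 6.15 and 5.24. Zranb3, a DNA repair enzyme gene, was lowest on replicate 2 at 7.16, 6.38 and 7.24. The remaining low genes of either array were mostly those high on replicate 3, such as Mmp8 and Emb.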

How the data were processed

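The authors deposited linear probe set intensities, made with RMA per the submitters' processing notes, for which no version or setting is given in the sources used here. Log2 was taken of the 3 young columns, and the arrays were grouped by their titles. Of 28940 probe sets 21789 carry 1 gene in the platform annotation, 1621 several and 5530 none; the first kind gave 19938 genes, each read from its brightest probe set. No filter on dim genes was applied to lists, no array was left out, and no normalization was added to the main values. With 1 group no test was run. A gene was called past 1.5-fold where an array differed from the mean of the other 2 by more than 0.585 on the log2 scale. Lists and families were described by counts and medians over all measured members, with numpy 2.4.6 and pandas 2.3.3 under Python 3.11.15, and drawn with matplotlib 3.10.9. The code recovered shifts set on 1 array in simulated data with even noise. The simulation held no wider spread on that array and covered no list, motif or microRNA result.

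The members, lists, families and markers were chosen with earlier results of these data known. Genes were named by rule, leaving out unnamed gene models and receptors of smell, pheromones and taste: the 20 highest and 10 lowest means, the 20 largest SDs above background on all arrays and the 10 largest above it on 1 or 2, the 10 highest and 10 lowest differences of each array, the markers, and of each list up to 4 members with the highest and 2 with the lowest mean and up to 4 each way by the difference of replicate 3. Named outside it, after their values were seen, were the other list members given with values, the family members given with values and the microRNA loci above background. The 7 motifs searched (both strands, 15614 genes with a RefSeq window) and the sequences shown were also chosen after values were seen. Not described above were TCCC and GGGA parted by any 2 bases, and TGGGAA, found in 1.19% and 27.1% of all genes with a window. The 302 microRNA genes were matched to RefSeq by symbol.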

Additional observations from a re-analysis of the deposited data

How the results depend on the processing

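No paired analysis was possible because 1 group was described and no groups were compared. The alternatives were centring, quantile normalization, averaging a gene's probe sets, keeping probe sets paired with several genes, leaving out each array, a 2-fold threshold, a filter on dim genes and a background at the 99th percentile. Of the summary values below, only the early-stage difference could change sign, and it did not. The median difference of the pre-B stage list, given above, did change sign with the scaling. The ribosomal median of 10.99 was 10.63 with probe sets averaged, 11.27 with shared probe sets kept, and 10.98 to 11.001 with an array left out. The B lineage median of 9.21 was 9.45 with shared probe sets kept. Leaving out an array moved the early-stage median of 6.84 to between 6.59 and 6.95, and the median SD of 0.118 to between 0.0752 and 0.109. The lowest of both came without replicate 3. An SD over 2 arrays has a lower median than an SD over 3 at the same spread. Part of the fall from 0.118 therefore follows from the number of arrays. At 2-fold, 9, 2 and 57 genes were past the threshold on replicates 1, 2 and 3, against 114, 116 and 368 at 1.5-fold. With an array left out, and the brightest probe set chosen over the other 2, replicate 1 had 93 to 429 such genes, replicate 2 93 to 516 and replicate 3 429 to 516; the 93 came without replicate 3 both times. The early-stage difference of replicate 3, 0.13, ran from 0.08 after quantile normalization to 0.16 after centring or without replicate 1, and has no value without replicate 3. Of 66 named genes past 1.5-fold on replicate 3, 66 kept their sign and 60 stayed past it after quantile normalization, and 63 and 55 did without replicates 1 and 2. Many of the 66 were named for these same differences, so that they kept their sign was nearly fixed by the choice. Alternatives for the lists other than the early-stage list were added after seeing the data.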

Other observations

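Many probe sets without a gene in the platform annotation carried signal on the young arrays. Of 5530 such probe sets 1957 lay above background on all arrays (35.4%), and 38 had means above 11, the highest at 12.24. Of the 1621 paired with several genes 857 did so (52.9%). On replicate 3, of the 5530 probe sets without a gene 53 were more than 1.5-fold higher and 58 lower. Of the 1621 with several genes 23 were higher and 19 lower, and of the 19938 genes, each read from its brightest single-gene probe set, 315 were higher and 53 lower. The difference between these kinds was not tested.

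Single families held members far from their own median. Among keratin-associated proteins, which build hair and had a median of 3.67, Krtap17-1 averaged 7.64 and 14 of 44 lay above background on all arrays. Over all genes that share was 50.6%. Among small nucleolar RNAs, guides for modifying ribosomal RNA with a median of 5.82, Snord104 averaged 10.64. Igkv19-93, a kappa light chain segment, was the brightest immunoglobulin segment gene at 8.53, ahead of Ighm, the mu heavy chain gene, at 8.11.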
